A study of Rattus norvegicus with 6 samples.

Results

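The SIBLING genes encode the small integrin-binding ligand N-linked glycoproteins, a family of acidic phosphoproteins that bone and tooth cells secrete into mineralising matrix. Osteopontin (Spp1), bone sialoprotein (Ibsp), dentin matrix protein 1 (Dmp1) and matrix extracellular phosphoglycoprotein (Mepe) were examined, and each was taken from the probe sets whose platform annotation gave exactly 1 gene symbol. These 4 are a subset of the family: Dspp, its dentin member, was not among the genes chosen, and its values stand with the neighbouring genes below. All 4 were found, each with 1 probe set, among 14506 genes named in this way and 29215 probe sets in all. The proteins share an Arg-Gly-Asp motif that binds integrins, and acidic, phosphorylated stretches that bind calcium and hydroxyapatite. Osteopontin attaches osteoclasts to bone and restrains crystal growth, bone sialoprotein promotes the start of mineral formation, and the other members are known above all from osteocytes and dentin. Osteoblasts and osteocytes make all of these proteins, whereas osteopontin is also made by macrophages, osteoclasts and many other cells.

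The source was long bone of 2 to 5 day old Sprague Dawley rats, from which cells were freed and then adhered to plates coated with 1 protein. The PT group comprised 3 arrays of cells on mouse prothrombin (replicates 1, 2 and 4), the precursor of the clotting protease thrombin. The OPN group comprised 3 arrays of cells on osteopontin from bovine milk (replicates 2, 3 and 4), so that the coating in this group is the protein product of 1 of the genes measured. Both groups hold freshly extracted cells selected by attachment, there was no uncoated or unselected sample, and the adherent cells are a mixture and not a purified type. The labels tie the comparison to multinucleated cells that stain for tartrate-resistant acid phosphatase, which adhere to each coating. No label says that the replicates came from separate animals or extractions, so a p-value here sets the coating difference only against the spread of these samples, and that spread could be technical.

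The arrays were Affymetrix Rat Gene 1.0 ST, with 1 linear signal per probe set and array. Array medians lay between 207.8 and 231.4 signal units, and correlations across probe sets were at least 0.988 within a coating and at most 0.979 between coatings. Differences below are OPN minus PT of log2(signal + 16), tested with limma over all 29215 probe sets. A gene is called where its Benjamini-Hochberg adjusted p lies below 0.05. Over all probe sets, 5.05% were called higher on OPN and 0.77% lower, and over 1 probe set per named gene these shares were 7.62% and 1.12%. The split of 1475 higher against 225 lower became 1193 against 551 with equal array medians and 1360 against 745 with quantile normalisation. It became 1077 against 121 without PT replicate 2, 1357 against 129 without PT replicate 4 and 928 against 95 without OPN replicate 3. Without OPN replicate 2 it was 982 against 98 and without OPN replicate 4 it was 1173 against 99. The median difference of all probe sets was 0.03. Signals of different probe sets depend on their probes, so levels are compared between arrays and not between genes, and the small number of arrays limits the precision.

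The 4 SIBLING genes, chosen with earlier results of these data known, were all called higher in OPN-adherent cells, against 7.62% of named genes. The call of Mepe was lost whichever array was left out. The family member Dspp was not called (log2 difference -0.03, limma adjusted p = 0.896). For each of the 4, every OPN array lay above every PT array, which also held for 16.3% of all probe sets. The sizes differed widely. Ibsp and Spp1 ranked 2nd and 5th of all 29215 probe sets by log2 difference, Dmp1 ranked 51st and Mepe ranked 2016th.

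Spp1, the gene of osteopontin, gave signals of 404, 514 and 453 in PT replicates 1, 2 and 4 and of 6282, 7023 and 5969.8 in OPN replicates 2, 3 and 4. Even the lowest OPN array was 11.6 times the highest PT array. The log2 difference was 3.77 (SE 0.10, 95% interval 3.53 to 4.00), a 13.6-fold higher value on the scale with the offset, with an adjusted p of 2.34e-07 by limma. The group means were 457 ± 54.9 on PT and 6425 ± 541 on OPN (SD, n = 3). These signals are of rat messenger RNA in the adherent cells, and the bovine protein of the coating was not measured.

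Ibsp, the gene of bone sialoprotein, gave 533, 337 and 547 on PT and 7208, 7385 and 6426 on OPN. PT replicate 2 was clearly below the other PT arrays, and the coefficient of variation was 24.8% on PT against 7.29% on OPN. The log2 difference of 3.87 (SE 0.17, 95% interval 3.49 to 4.26) corresponded to a 14.7-fold higher value, with a limma adjusted p of 3.30e-06. Mean signals were 472 ± 117 on PT and 7006 ± 511 on OPN (SD, n = 3).

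Dmp1, whose product is made mainly by osteocytes and odontoblasts and whose loss in humans causes a phosphate-wasting rickets, gave 197, 139.9 and 186 on PT. Its OPN signals were 982, 1034 and 925, all at least 4.70 times the highest PT value. The log2 difference was 2.40 (SE 0.12, 95% interval 2.13 to 2.67), a 5.28-fold higher value with a limma adjusted p of 6.56e-06. PT replicate 2 was again the lowest array. Mean signals were 174 ± 30.2 on PT and 980.4 ± 54.7 on OPN (SD, n = 3).

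Mepe, whose product carries the acidic peptide ASARM that inhibits mineral formation, gave 107, 96.8 and 108 on PT and 138, 131 and 128 on OPN. The groups did not overlap, but the lowest OPN array was only 1.19 times the highest PT array. The log2 difference was 0.31 (SE 0.07, 95% interval 0.15 to 0.47), a 1.24-fold higher value with a limma adjusted p of 0.0412. Mean signals were 104 ± 6.14 on PT and 132 ± 4.73 on OPN (SD, n = 3). Mepe lay below the lower quartile of all probe sets on 6 of 6 arrays, whereas the other members did so on 0 of 6, and whether it lay above background is not known. Its call was lost when any of the 6 arrays was left out, with adjusted p from 0.0687 to 0.177, while the difference stayed between 0.27 and 0.33.

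**Figure D1:**
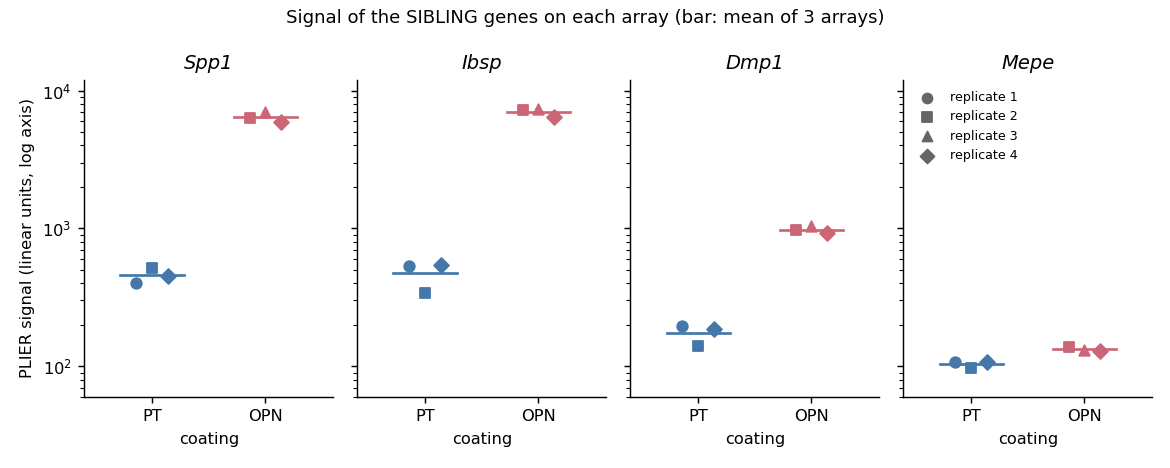
Signal (log axis, PLIER units) of Spp1, Ibsp, Dmp1 and Mepe on each of the 6 arrays; points are arrays, with the shape giving the replicate number, and bars are group means. The OPN points of Spp1 lie from 5969.8 to 7023 against 404 to 514 on PT, whereas those of Mepe lie from 128 to 138 against 96.8 to 108; heights of different genes cannot be compared.

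The members did not share 1 order of arrays within a coating. On PT, replicate 2 had the lowest Ibsp, Dmp1 and Mepe signal but the highest Spp1 signal. PT replicate 2 was also the dimmest array as a whole, with a median of 207.8 and a lower quartile of 122.8, against medians of 221.7 and 215.7 on PT replicates 1 and 4, and the part of this in the order was not tested. Ctsk, the gene of the osteoclast protease cathepsin K, was likewise highest on PT replicate 2, with 411, 483 and 396 on PT and 8839, 9756 and 8575 on OPN. Osteoclast markers as a list did not share this order. Acp5, Clcn7 and Src were also highest on PT replicate 2. Mmp9, Atp6v0d2, Tcirg1 and Car2 were highest on PT replicate 4, and Itgb3 and Calcr on PT replicate 1. On OPN, replicate 3 was highest for Spp1, Ibsp and Dmp1 and replicate 2 for Mepe. With 3 arrays per coating these orders are a description.

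Whether the members differed in the size of the coating difference was asked for all 6 pairs by an exact two-sided permutation test over the 20 splits of the arrays, which cannot give a p below 0.1. Spp1 and Ibsp differed by -0.11 on the log2 scale (p = 1, adjusted p = 1, exact permutation), and the per-array differences between them overlapped, at -0.13 ± 0.065 on OPN and -0.020 ± 0.53 on PT (SD, n = 3). The measured coating difference of Spp1 was larger than that of Dmp1 by 1.37 and that of Ibsp by 1.47. Against Mepe the gaps were 3.46 for Spp1, 3.57 for Ibsp and 2.09 for Dmp1, but Mepe may not lie above background, so its own difference, and with it these gaps, are uncertain. Each of these 5 contrasts separated the OPN from the PT arrays without overlap, with p = 0.1 and adjusted p = 0.12 in the exact permutation test, the smallest the design allows and above 0.05, so none of them passed.

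The SIBLING genes lie side by side on rat chromosome 14 in the order Spp1, Mepe, Ibsp and Dmp1, followed by Dspp, in the RefSeq gene table of assembly GRCr8, and these 4 genes lie on the minus strand. The windows before the starts of Spp1, Ibsp and Mepe are shown because they set the most different members beside the least different one. The window of Dmp1, also strongly different, is left out because its annotated start lies 27070 bases inside the outer end of the gene. Each runs from 250 bases before to 50 bases after the annotated start, is credited to RefSeq with build GRCr8, and is written 5′ to 3′ along the gene's own strand. Spp1 lies at chr14:5619755-5620054, with a start 891 bases inside the outer end of the gene, Ibsp at chr14:5757193-5757492 and Mepe at chr14:5736809-5737108. Capitals mark the motifs searched.
Spp1: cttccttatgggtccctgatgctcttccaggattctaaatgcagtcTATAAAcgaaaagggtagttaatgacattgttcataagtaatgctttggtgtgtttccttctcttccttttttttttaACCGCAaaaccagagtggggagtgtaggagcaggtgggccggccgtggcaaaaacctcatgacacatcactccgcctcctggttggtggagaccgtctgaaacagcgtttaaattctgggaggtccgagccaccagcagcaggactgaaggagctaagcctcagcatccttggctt
Ibsp: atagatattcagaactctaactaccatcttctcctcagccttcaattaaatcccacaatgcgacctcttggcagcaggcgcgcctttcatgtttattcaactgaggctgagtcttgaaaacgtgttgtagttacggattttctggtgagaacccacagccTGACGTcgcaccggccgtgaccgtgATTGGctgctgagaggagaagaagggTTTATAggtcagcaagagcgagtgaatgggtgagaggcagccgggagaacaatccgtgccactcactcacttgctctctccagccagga
Mepe: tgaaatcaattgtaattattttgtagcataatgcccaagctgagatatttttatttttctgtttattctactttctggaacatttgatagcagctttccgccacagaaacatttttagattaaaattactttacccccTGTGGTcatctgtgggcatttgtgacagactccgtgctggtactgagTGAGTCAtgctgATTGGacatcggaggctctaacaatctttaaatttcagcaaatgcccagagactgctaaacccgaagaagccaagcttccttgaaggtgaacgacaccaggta

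The motifs were searched by letter on both strands, and a match is a description and not a binding site. The RUNX core ACCACA, with TGTGGT as its other strand, read by the factor family of Runx2, was found in the Mepe window at -112 to -107 and in 17.3% of 33469 RefSeq promoter windows. Its variant ACCGCA, with TGCGGT as its other strand, was found in the Spp1 window at -126 to -121 and in 6.39% of windows. The AP-1 motif TGANTCA, read by Fos and Jun proteins, occurred only in the Mepe window among these, as TGAGTCA at -65 to -59, and in 7.33% of all windows. The shortened cyclic AMP response element TGACGT, with ACGTCA as its other strand, was found in the Ibsp window at -90 to -85 and in 7.94% of windows. The CCAAT box, with ATTGG as its other strand, stood at -65 to -61 in Ibsp and at -53 to -49 in Mepe, on the reverse strand in both, and in 37.5% of windows. The TATA box letters TATAAA, with TTTATA as their other strand, stood at -204 to -199 in Spp1 and, on the reverse strand, at -39 to -34 in Ibsp, and in 14.2% of windows. An inverted TATA box and an inverted CCAAT box are known features of the rat Ibsp promoter. No motif matched overlaps another in these 3 windows.

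The genes around the cluster were examined to see whether the difference reached beyond it. The 5 nearest genes with a measured probe set on each side of the cluster comprised 10 genes, of which 1 was called higher and 0 lower by limma. At an unadjusted p under 0.05 these counts were the same, 1 and 0. Over 1 probe set per named gene, 7.62% were called higher and 1.12% lower, so 1 of 10 lies near the share of all genes. The gene called was Sparcl1, the relative of osteonectin that lies beyond Dspp. It gave 209.7, 223 and 216 on PT and 344, 358 and 304 on OPN, a log2 difference of 0.59 (SE 0.08, adjusted p = 0.00259).

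Dspp, the adjoining member of the same gene family, encodes dentin sialophosphoprotein, the main non-collagen protein of dentin. It gave 228, 205 and 204 on PT and 213, 209.7 and 200.6 on OPN, and the groups overlapped. Its log2 difference was -0.03 (SE 0.07, 95% interval -0.20 to 0.14, limma adjusted p = 0.896). On the Spp1 side of the cluster the differences were 0.09 for Abcg3, 0.30 for Abcg3l3, -0.15 for Zfp658l1, -0.18 for Zfp951 and -0.03 for Abcg3l1, none of them called. On the Dmp1 side, Nudt9 stood at -0.01, Hsd17b11 at 0.05 and Hsd17b13 at -0.09, also uncalled.

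**Figure D2:**
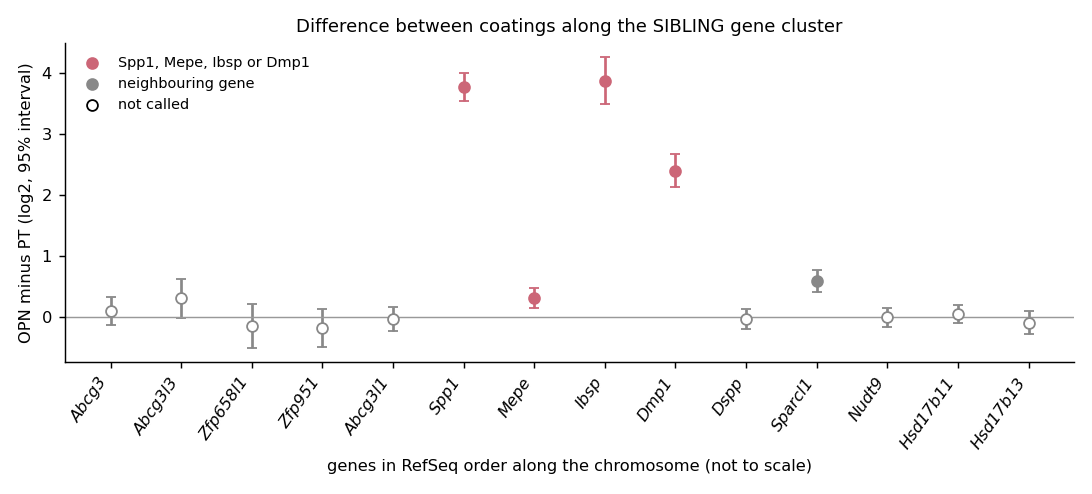
Log2 difference OPN minus PT (limma, with 95% intervals) of Spp1, Mepe, Ibsp and Dmp1 (red) and the flanking genes (grey, open where not called), set in their RefSeq order along chromosome 14 and not to scale. The family member Dspp, not called, is drawn with the flanking genes. Spp1, Ibsp and Dmp1 stand at 3.77, 3.87 and 2.40, Mepe between them at 0.31, and of the 10 flanking genes only Sparcl1, at 0.59, was called.

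The SIBLING genes belong to the secretory calcium-binding phosphoprotein (SCPP) genes, which are thought to derive from the Sparc family, and both groups were counted as relatives. Of 8 measured, with Dspp counted among them, 2 were called higher and 0 lower, with a median difference of 0.08. Over all named genes 7.62% were called higher and 1.12% lower, the background for this and the list counts that follow. Sparc, the gene of osteonectin, an abundant collagen-binding protein of bone, gave 1111, 1171 and 1102 on PT and 9715, 10675 and 9632 on OPN. Its log2 difference was 3.13 (SE 0.07, limma adjusted p = 1.28e-07), an 8.76-fold higher value. Sparcl1 was the other relative called. The genes of enamel proteins were not called, at -0.02 for Enam (enamelin), 0.10 for Ambn (ameloblastin), 0.11 for Amelx (amelogenin), -0.04 for Amtn (amelotin) and 0.06 for Odam.

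Among 8 measured receptor genes for osteopontin and bone sialoprotein, 3 were called higher and 0 lower, and the median difference was 0.23. Itgb3, the beta chain of the vitronectin receptor, gave 614, 511 and 603 on PT and 1995, 2064 and 1816 on OPN. That is a log2 difference of 1.74 with a limma adjusted p of 9.65e-06. Itgb1, the widely shared beta 1 chain, differed by 0.72 (adjusted p = 0.000297) and Itga5, the fibronectin receptor alpha chain, by 0.46 (adjusted p = 0.0101), a call lost without OPN replicate 2 (adjusted p = 0.0543) or OPN replicate 3 (adjusted p = 0.0537). Itgb8 at 0.32 (called without PT replicate 1, adjusted p = 0.0255), Itgb6 at 0.05, Itgb5 at -0.01 and Itga4, the alpha 4 chain of leukocytes, at -0.25 were not called. Cd44, a hyaluronan receptor also described as binding osteopontin, stood at 0.14 (adjusted p = 0.412) and is named after its value was seen. Itgav, the partner of Itgb3 in the vitronectin receptor, and Itga8 and Itga9 were not analysed here.

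Of 18 genes of enzymes that phosphorylate, cleave, cross-link or dephosphorylate SIBLING proteins, 7 were called higher and 0 lower, with a median difference of 0.10. Phex, Acp5, Alpl and Mmp9, all called, also stand in the marker lists below. Phex, a membrane endopeptidase that degrades ASARM peptides and is mutated in X-linked hypophosphataemia, gave 70.7, 63.0 and 69.5 on PT and 740.0, 750.2 and 687 on OPN. Its difference of 3.15 on the log2 scale was 8.86-fold (limma adjusted p = 1.28e-07). Acp5, the tartrate-resistant acid phosphatase that dephosphorylates osteopontin, differed by 2.46 (adjusted p = 4.33e-07). The matrix metalloproteinases Mmp9 and Mmp2 differed by 2.90 (adjusted p = 5.07e-07) and 2.57 (adjusted p = 1.62e-06).

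Bmp1, a protease that cleaves the DMP1 protein, and Fam20c, the Golgi kinase that phosphorylates the family, were picked after their values were seen. Bmp1 gave 228, 189.95 and 191 on PT and 927, 1024 and 877 on OPN, a log2 difference of 2.13 (limma adjusted p = 3.58e-06). Fam20c gave 380, 352 and 374 on PT and 374, 386 and 351 on OPN, with overlapping groups. Its difference was 0.01 (SE 0.07, 95% interval -0.15 to 0.17, adjusted p = 0.977). The lowest differences in the list, uncalled, were those of the lysosomal cathepsins Ctsb at -0.22 and Ctsd at -0.18 and of F2, the gene of prothrombin itself, at -0.15 (adjusted p = 0.397).

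Of 10 measured genes of mineral and phosphate handling, 3 were called higher and 1 lower, with a median difference of 0.21. Bglap, which encodes osteocalcin, gave 230.4, 221 and 216 on PT and 1226, 1457 and 1226 on OPN, a log2 difference of 2.46 (limma adjusted p = 9.02e-07). Smpd3, a sphingomyelinase needed for bone mineral, differed by 2.10 (adjusted p = 4.46e-06). Enpp1, which makes the mineral inhibitor pyrophosphate, differed by 0.85 (adjusted p = 0.000759). Slc20a1, a sodium-phosphate transporter, fell by 0.31, from 1644, 1633 and 1657 on PT to 1349, 1309 and 1323 on OPN (adjusted p = 0.0245), and this call was lost whichever array was left out. Fgf23, the phosphate hormone of osteocytes, stood at 0.06 and Ahsg, fetuin A of serum, at 0.06, neither called.

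Transcription factors described at SIBLING promoters were measured by 12 probe sets, 1 per gene, of which 7 were called higher and 0 lower, with a median difference of 0.54. Fos differed by 1.74 (limma adjusted p = 7.36e-05) and its AP-1 partner Jun by 1.01 (adjusted p = 0.000120). Runx2, the master factor of osteoblasts, gave 258, 209.96 and 264 on PT and 570, 566 and 515 on OPN, a log2 difference of 1.13 (adjusted p = 0.000196). Dlx5, a homeodomain factor of osteoblasts, differed by 0.81 (adjusted p = 0.000343). Vdr, the vitamin D receptor that acts on Spp1, was picked after its value was seen and differed by 0.90 (adjusted p = 0.000421). Msx2 at 0.15, Mitf at 0.12 and Atf4 at 0.07 were not called.

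**Figure D3:**
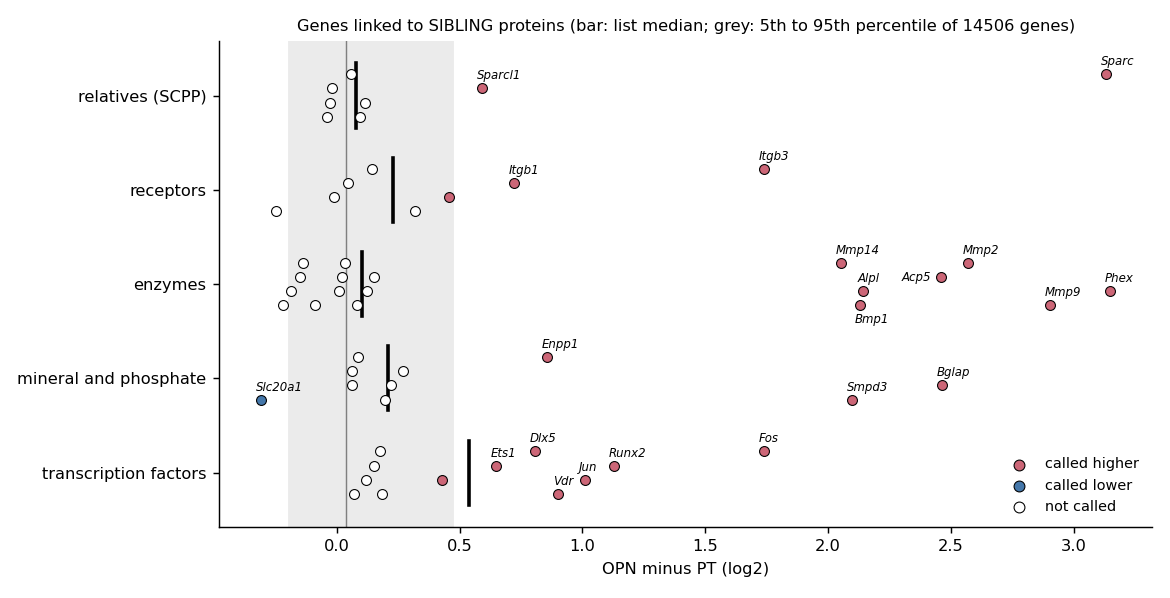
Log2 difference OPN minus PT (limma) of each measured gene in the lists linked to the SIBLING proteins, with 1 row per list; filled points are called and open points are not, bars are list medians, and the grey band spans the 5th to 95th percentile of the 14506 named genes around their median. Phex at 3.15 and Sparc at 3.13 stand farthest to the right, and each of the 5 lists also holds uncalled genes inside the band.

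Markers of the cells that these samples could hold moved with the coating, and their part in the SIBLING differences was not tested. In bulk RNA, fewer cells of a type and less RNA per cell cannot be told apart. The lists share genes, so their counts are not separate, and they stand against 7.62% of all named genes called higher and 1.12% lower. Phex, Acp5, Alpl, Mmp9, Itgb3, Sparc, Bglap, Runx2, Sp7 and Fgf23 stand both in a list above and in a marker list. Of 13 osteoblast markers measured, 12 were called higher and 0 lower, and their summed signal ranged from 11171 to 11923 on PT and from 51080.1 to 56846 on OPN. Most of these sums came from the type I collagen chains Col1a1 and Col1a2, so they chiefly follow those chains. Signals depend on the probes, so a sum does not weigh its genes equally. The median log2 difference of the osteoblast list was 1.87, and Bmp8a, at 0.10, was not called. Col1a1 gave 5805, 5506 and 5348 on PT and 19926, 21675 and 19357 on OPN. Col1a2 gave 3289, 2908 and 3001 on PT and 16531, 18174 and 16499 on OPN. Of 10 stromal fibroblast markers, 10 were called higher, with sums of 1932 to 2055 on PT and 8821 to 9652 on OPN.

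Of 10 osteoclast markers measured, 8 were called higher and 0 lower, with sums of 11498 to 13722 on PT and 29194 to 32764 on OPN. Car2, the carbonic anhydrase that supplies acid for resorption, made up 66.6% to 70.3% of these sums on PT and was not called. It gave 7660, 9386 and 9646 on PT and 7600, 8106 and 7313 on OPN, with overlapping groups and a log2 difference of -0.21 (limma adjusted p = 0.334). That difference lies within the -0.35 to -0.11 range of the erythroid markers below. Which cells gave the Car2 signal was not tested. Without Car2 the sums ranged from 3839 to 4076 on PT and from 21882 to 24658 on OPN. Ctsk differed most in this list, by 4.35 on the log2 scale (limma adjusted p = 1.27e-07). Calcr, the calcitonin receptor that defines mature osteoclasts, stood at 0.18 (adjusted p = 0.416), and Ocstamp, Dcstamp, Oscar, Nfatc1 and Tnfrsf11a were not analysed here. Of 14 macrophage markers, 0 were called higher and 9 lower, with sums of 14889 to 15608 on PT and 10671 to 11430 on OPN. Cd163, the haemoglobin scavenger receptor, fell by 0.87 (adjusted p = 0.000236), whereas Cd68, picked after its value was seen, stood at 0.18 and was not called.

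Of 6 osteocyte markers measured, 2 were called higher, namely Phex, which osteoblasts also make, and Pdpn, an early osteocyte surface protein, at 1.07. At an unadjusted limma p under 0.05, 4 osteocyte markers were higher and 0 lower. Dkk1 at 0.36 (limma adjusted p = 0.0736) and Ackr3 at 0.34 (adjusted p = 0.118) were not called. In both, every OPN array lay above every PT array, and Ackr3 was called without PT replicate 4 (adjusted p = 0.0482). Sums over all 6 osteocyte markers ranged from 1214 to 1378 on PT and from 2277 to 2466 on OPN. Sost, the gene of sclerostin and a defining product of mature osteocytes, stood at -0.01 (95% interval -0.24 to 0.22, limma adjusted p = 0.974). Of 10 chondrocyte markers, 1 was called higher and 0 lower, which lies near the 7.62% of all named genes called higher. Their sums were 3996 to 4318 on PT and 4299 to 4531 on OPN. At an unadjusted limma p under 0.05, 4 chondrocyte markers were higher and 0 lower. The chondrocyte marker called was Col2a1, the cartilage collagen, at 0.41, a call kept only without PT replicate 1 or OPN replicate 4 when 1 array was left out. Endothelial markers were called higher in 8 of 10 genes and platelet markers in 6 of 6, with median differences of 0.61 and 0.73. Of 8 granulocyte markers 0 were called (4 higher and 0 lower at an unadjusted limma p under 0.05), but without PT replicate 4 the count was 4 higher. Of 7 erythroid markers 1 was called lower, Epb42, a red cell membrane protein, at -0.35, and leaving out any array but PT replicate 1 ended that call. All 7 erythroid differences were negative, from -0.35 to -0.11 with a median of -0.24. At an unadjusted limma p under 0.05, 0 of them were higher and 6 lower. No marker was at 0 on any array, and the lowest marker signal was 35.7.

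**Figure D4:**
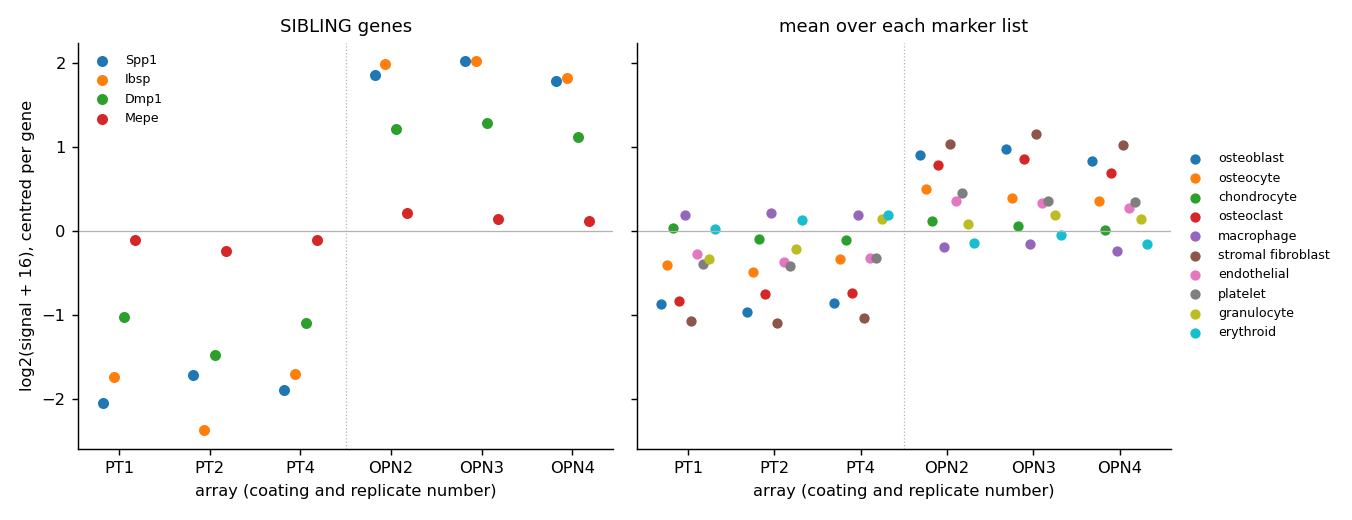
Values of log2(signal + 16) on each array, centred per gene on its mean over the 6 arrays, for the SIBLING genes (left) and as the mean over each marker list (right). The Spp1 points run from -2.05 to 2.02, the mean of the osteoblast list from -0.97 to 0.97 and that of the macrophage list from 0.22 to -0.24, while the Mepe points stay between -0.24 and 0.21.

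Likeness of pattern was measured as the root mean square difference of log2 values over the 6 arrays, each gene centred on its own mean, so that it chiefly follows the size of the coating difference. The genes most like Spp1 were Gja1, the connexin of osteoblasts and osteocytes, at 0.0796, Mmp13, an interstitial collagenase, at 0.101, Serpine2 at 0.153, Panx3 at 0.175 and Mme at 0.186. Ibsp stood 13th in that order, at 0.312. The genes most like Ibsp were Panx3, a pannexin channel of osteoblasts, at 0.159, Mmp13 at 0.252, Serpine2 at 0.268, Tfpi2 at 0.297 and Serpinh1, the collagen chaperone HSP47, at 0.300, with Spp1 next at 0.312. Panx3, Mmp13 and Serpine2 thus stood among the nearest 5 of both.

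Dmp1 was nearest to Fkbp7 at 0.0804, the collagen chain genes Col5a1 at 0.101 and Col1a2 at 0.111, Mmp2 at 0.107 and Bglap at 0.146. Spp1 stood 236th and Ibsp 251st in the order for Dmp1. Mepe was nearest to Sem1 at 0.0172, Lat at 0.0187, Adcy5 at 0.0219, Nab2 at 0.0221 and Kank4 at 0.0224. Of these, Adcy5 and Nab2 were called, with differences of 0.29 and 0.34, and Sem1, Lat and Kank4 were not. The call of Adcy5 was lost without any of the 6 arrays (adjusted p from 0.0591 to 0.172), and that of Nab2 was lost without any array but PT replicate 4 (adjusted p up to 0.116). Of all probe sets, 6.90% had a larger log2 difference than Mepe.

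**Figure D5:**
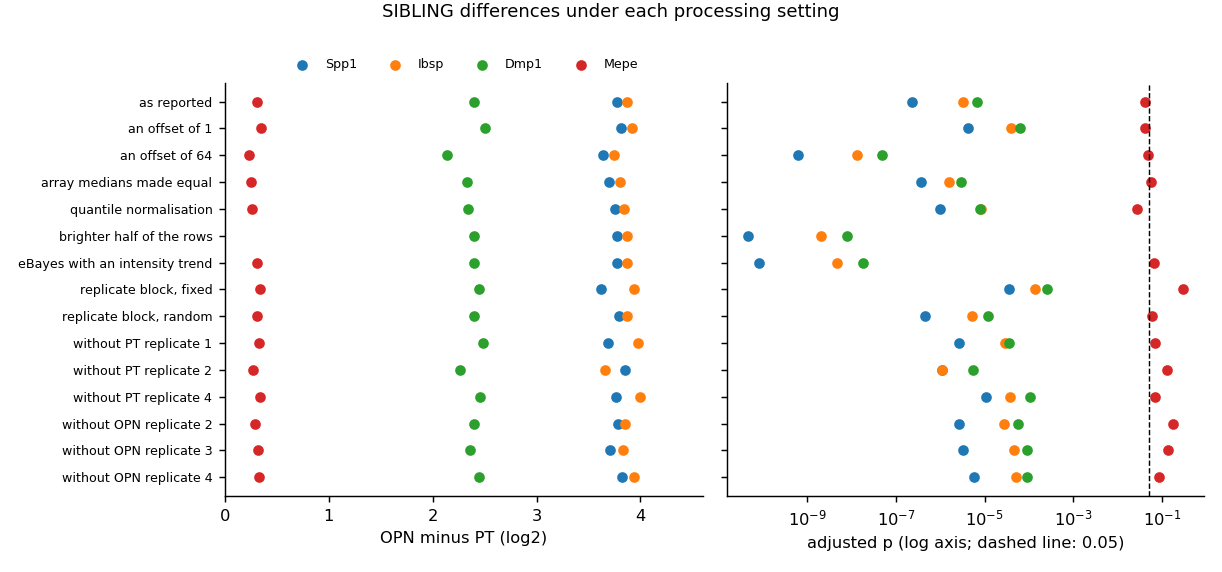
Log2 difference OPN minus PT of each SIBLING gene under each processing setting (left) and its limma adjusted p on a log axis (right), where the dashed line marks 0.05. Spp1 stays between 3.62 and 3.85, Ibsp between 3.66 and 3.99 and Dmp1 between 2.14 and 2.50 with each adjusted p below the line, while Mepe stays between 0.23 and 0.35 and was called in 3 of its 13 alternatives.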

How the data were processed

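Affymetrix Rat Gene 1.0 ST arrays were read for 3 PT and 3 OPN samples, grouped by title. The deposited values are 1 linear intensity per probe set and array, made with Affymetrix Expression Console and PLIER per the submitters' processing notes. Not given in the sources used here are versions, background correction, genome build and any scaling between arrays. Rows were named through the platform annotation, where 15310 of 29215 had 1 symbol, 323 several and 13582 none, and for a gene with several rows the row of highest mean was used. Of the named rows, 15279 matched the GRCr8 gene table.

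The deposited intensities were taken as log2(intensity + 16), which understates changes of dim rows. No row was filtered, and lmFit and eBayes (limma 3.58.1, R 4.3.3) gave p-values adjusted over 29215 rows. The procedure was tested on simulated data. Offsets, scalings, a filter on dim rows, an intensity trend, a replicate block and leaving out each array served as alternatives. Named are all members, flanking genes and relatives, and 5 nearest profiles per member. Per list linked to the SIBLING proteins, up to 4 genes of smallest p and 3 of lowest difference are named. Genes named from the marker lists are examples and were not all picked by this rule. The members and lists were chosen with earlier results of these data known.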

Additional observations from a re-analysis of the deposited data

How the results depend on the processing

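The calls of Spp1, Ibsp and Dmp1 held under each of 14 alternatives run, with adjusted p of at most 3.55e-05, 0.000134 and 0.000256 by limma. Mepe kept its direction in 13 alternatives and its call in 3. Its difference, no longer called, was 0.25 with equal array medians, 0.31 with an intensity trend, 0.33 with a fixed replicate block and 0.31 with a random one, and from 0.27 to 0.33 without 1 array. The filter that kept rows above the median signal removed Mepe, and another row per member could not be tried because each has 1. Replicate numbers 2 and 4 occur in both groups, and samples of the same number correlated at -0.0817 and 0.0681 in their deviations, against -0.108 to 0.181 between different numbers. The labels do not say whether the numbers pair the samples, and this check does not settle it. With the fixed replicate block 618 probe sets were called higher and 48 lower, Sparcl1 was no longer called (0.53, adjusted p = 0.0759), which left no flanking gene called, and the counts were 1 higher relative, 0 lower mineral genes, 0 higher chondrocyte, 5 higher endothelial and 0 lower erythroid markers. The sign turned there for Abcg3l1 (0.040), Amtn (0.020), Dspp (0.014), Nudt9 (0.023), Sost (0.047) and Zfp951 (0.024). Without 1 array, 928 to 1357 probe sets were called higher and 95 to 181 lower. Other counts called lower were 382 with an offset of 64, 551 with equal medians, 745 with quantile normalisation, 554 with that filter and 508 with the trend. Called lower among erythroid markers were 2 with an offset of 64 or either scaling and 3 with the filter, and among receptors 1 (Itga4) with the filter or the trend. Leaving out 1 array gave 0 to 4 higher granulocyte markers (4 without PT replicate 4), 0 to 1 higher chondrocyte markers, 0 to 1 lower erythroid markers and 0 lower mineral genes. It also gave 10 to 11 higher osteoblast, 9 to 10 higher stromal fibroblast and 2 to 3 higher osteocyte markers. Receptors called higher were then 2 to 4, transcription factors 6 to 7, and macrophage markers called lower 8 to 9. Uncalled values that turned sign with equal medians were Ahsg -0.0022, Fam20c -0.060, Fgf23 -0.0031, Hsd17b11 -0.019 and Itgb6 -0.016, and with quantile normalisation Ahsg -0.011, Fam20c -0.068, Fgf23 -0.0081, Hsd17b11 -0.030 and Itgb6 -0.0091. Without 1 array they ranged from -0.10 to 0.021 for Abcg3l1, -0.072 to 0.010 for Amtn, -0.056 to 0.020 for Dspp, -0.065 to 0.044 for Enam, -0.024 to 0.043 for Fam20c, -0.027 to 0.14 for Fgf23, -0.046 to 0.024 for Itgb5, -0.020 to 0.14 for Itgb6, -0.034 to 0.020 for Nudt9, -0.12 to 0.16 for Odam and -0.091 to 0.072 for Sost. For the other differences the cause was not tested. Signal over background is not known, which limits what the dim Mepe row can show.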
